A study of Mus musculus with 6 samples.

Results

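The transcripts described here encode 10 proteins that hold or select the substrates of the cullin-RING ligase CRL4: the adaptor Ddb1, its small partner Dda1, and the receptors or receptor partners Det1, Cop1, Crbn, Dtl, Ddb2, Ercc8, Ambra1 and Dcaf8. Members were found by the gene symbol that the platform annotation gives to each probe set. That rule used no measured value, though the members were chosen with earlier results of these data known. Each of the 10 symbols had 1 probe set, out of 22206 probe sets with 19505 symbols. RNA was measured on 6 mouse Clariom S arrays (Affymetrix, 1 colour), 3 of Ube2m&Ube2f-deficient and 3 of control regulatory T (Treg) cells, the Foxp3-expressing CD4+ cells that restrain other immune cells. Deficient cells came from females that were Foxp3 Cre/wt, Ube2f fl/fl and Ube2m fl/fl, and control cells from Foxp3 Cre/wt mice, so both groups carried the Foxp3-YFP-Cre allele, which the Foxp3 locus drives. Foxp3 lies on the X chromosome, so only part of the Treg cells of such females express Cre and YFP, and the CD4+YFP+ sort from lymph nodes and spleen takes those. Every array held a pool of 2 to 3 mice aged 8 to 12 weeks. Sample titles name muscle, whereas the tissue, cell type and protocol labels name sorted Treg cells.

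CRL4 ligases are built on the scaffolds CUL4A or CUL4B, which hold the RING protein RBX1 at one end and the adaptor DDB1 at the other. DDB1 docks one of many interchangeable receptors, called DCAF proteins, and each receptor brings its own substrates to be ubiquitinated. The ligase is switched on when NEDD8 is attached to the cullin, a step that the E2 enzyme UBE2M carries out on CUL4 together with RBX1. The other E2 enzyme of neddylation, UBE2F, works with the RBX1 relative SAG on CUL5. The study deleted both to ask whether they can stand in for each other in Treg cells, and the comparison here asks whether transcripts of the CRL4 substrate modules differed between the groups.

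Signals are given on the log2 scale, where 1 unit is a factor of 2, and a difference is the deficient minus the control mean. A gene was called where limma's p, adjusted by Benjamini-Hochberg over all 22206 probe sets, was under 0.05, and rose or fell is written of called genes alone. Array medians lay between 4.89 and 5.11, and Pearson's r over probe sets was 0.982 to 0.990 between deficient arrays and 0.988 to 0.993 between control arrays. The 95th percentile of the mean signals of 1091 olfactory receptor genes, which Treg cells are not known to use, was 5.39 and served as a silent-gene reference. Taken by group, it was 5.51 in deficient and 5.33 in control arrays. Ube2f, a targeted gene, read 9.70, 9.72 and 9.82 in deficient arrays, against 11.91, 11.82 and 11.90 in control arrays, and fell by 2.13 (SE 0.164, adjusted p = 0.000263), which fits the labels. Ube2m had no named probe set. T cell markers were bright (Cd3e averaged 18.22), and the summed levels of 15 muscle genes, given as means per gene, were 4.05 to 4.24 in deficient and 4.05 to 4.20 in control arrays, under the silent-gene reference. The means of 8 measured Treg markers were 12.68 to 12.83 in deficient and 13.32 to 13.57 in control arrays, with 4 fallen and 0 risen. Of the 8, 6 were lower and 2 higher in deficient cells. The higher ones, Il2ra (by 0.60) and Gpr83 (by 0.69), had groups that did not overlap and were not called. Foxp3 itself had no named probe set. In such bulk RNA, fewer cells of a type and less RNA per cell cannot be told apart.

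None of the 10 transcripts was called: 0 rose and 0 fell, while limma called 2.85% of all probe sets (0.581% higher and 2.27% lower in deficient cells), and 5.37% of the 10123 whose mean lay above the silent-gene reference. At an unadjusted p under 0.05, limma picked 2 members, Crbn and Det1, both lower in deficient cells. That rule picks 12.9% of all probe sets (5.24% higher and 7.62% lower), and 20.6% of those above the silent-gene reference, so 20% of the members is near its background. The methods' t-test picked 3 unadjusted (Crbn, Det1 and Ercc8) and 0 adjusted. At the study's threshold, a fold over 1.5 together with an unadjusted p under 0.05, limma picked 0 members, against 3.24% of all probe sets higher and 5.82% lower in deficient cells.

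Member differences lay in both directions. They ran from -0.51 to 0.46 with a median of -0.14, and 4 (40%) were above and 6 below 0. Over all probe sets 53% were above 0, and 46.8% of those above the silent-gene reference. Their median absolute size was 0.255, against 0.193 for all probe sets and 0.247 for those above the silent-gene reference. The 95% intervals of 8 members included 0. For the 9 members above the silent-gene reference, the intervals of the signal difference reached at most 0.79 upward (Dda1) and -0.94 downward (Crbn). That of Dtl reached 1.06, which sets no limit on its fold in RNA, since its control mean was under the reference.

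**Figure D1:**
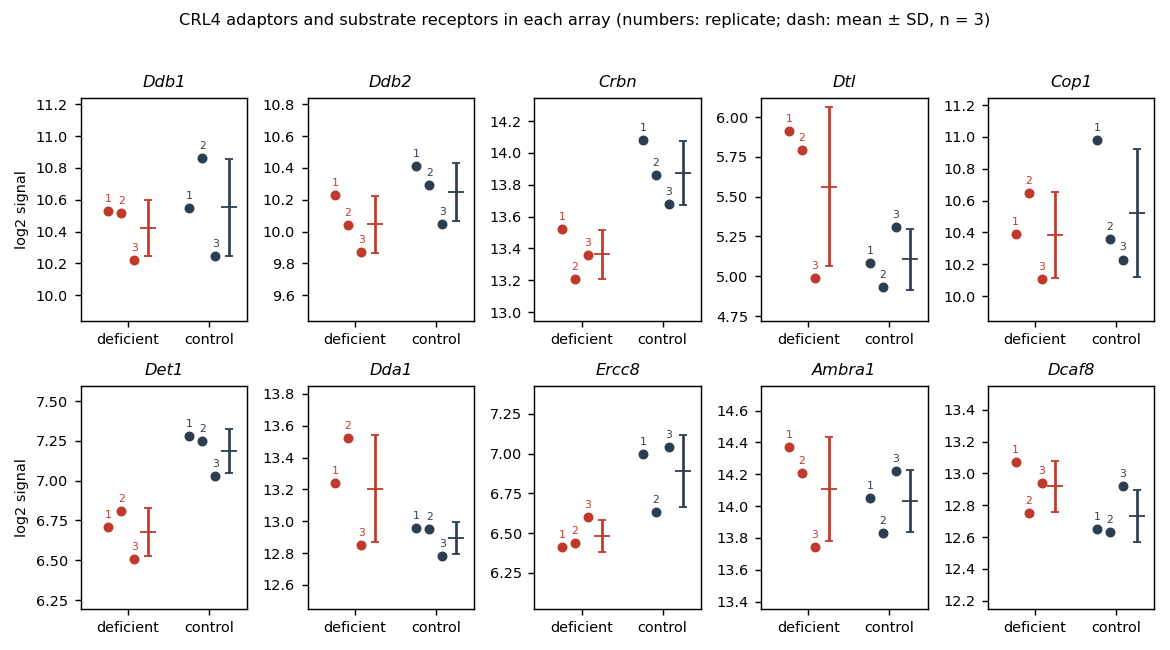
Log2 signal of each of the 10 transcripts in the 3 deficient (left, red) and 3 control (right, dark) arrays, with replicate numbers, and group means ± SD beside them (n = 3). Each panel spans 1.4 log2 units. Crbn, Det1 and Ercc8 have every deficient value below every control value, and the other 7 overlap.

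The adaptor Ddb1, through which every DCAF receptor reaches CUL4, read 10.53, 10.52 and 10.22 in deficient arrays, against 10.55, 10.86 and 10.25 in control arrays. The ranges overlapped, and the means were 10.42 ± 0.176 and 10.55 ± 0.305 (SD, n = 3 each). The difference was -0.13 (SE 0.212, 95% interval -0.61 to 0.35, adjusted p = 0.892). Dda1, a small protein that binds DDB1 and is part of many CRL4 complexes, read 13.24, 13.52 and 12.85 in deficient arrays, against 12.96, 12.95 and 12.78 in control arrays. Deficient replicates 1 and 2 were above every control array and replicate 3 was among them. The difference was 0.31 (SE 0.211, interval -0.17 to 0.79, adjusted p = 0.649).

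Other parts of the machine on which these modules sit were likewise not called, apart from the targeted Ube2f. Of 13 measured genes of the CRL4 scaffold, RING and NEDD8 cycle, 0 rose and 1 fell, and their median difference was -0.03. The scaffold Cul4a read 9.01, 8.89 and 9.27 in deficient arrays, against 8.61, 8.75 and 8.59 in control arrays. Its groups did not overlap, with a difference of 0.41 (SE 0.181, adjusted p = 0.395). The related scaffold Cul4b differed by -0.11 (adjusted p = 0.916) and Rbx1 by -0.16 (adjusted p = 0.843), with overlapping groups for both. The sign of Cul4b turned without deficient replicate 2, to 0.10. Senp8, which processes and removes NEDD8, had the next lowest p of this list after Ube2f, with a difference of -0.62 (adjusted p = 0.376) and overlapping groups.

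DET1 and COP1 work together on DDB1: in human cells DET1 and DDA1 link the RING protein COP1 to CRL4, and the complex degrades the transcription factor JUN and ETS-family factors. Det1 read 6.71, 6.81 and 6.51 in deficient arrays, against 7.28, 7.25 and 7.03 in control arrays. The highest deficient value was below the lowest control value, and both groups were tight, at 6.68 ± 0.153 and 7.19 ± 0.137 (SD, n = 3 each). The difference was -0.51, or 1.42-fold lower (SE 0.180, interval -0.92 to -0.10), with an unadjusted limma p of 0.0199 and an adjusted p of 0.248. An exact two-sided permutation test of the 6 values gave 0.1, the smallest p that 3 against 3 allows.

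Cop1 had values that overlapped between groups. It read 10.39, 10.65 and 10.11 in deficient arrays, against 10.98, 10.36 and 10.23 in control arrays. The difference was -0.14 (SE 0.248, interval -0.70 to 0.42, adjusted p = 0.901), and it rested on control replicate 1, without which it was 0.09. Whether the differences of Det1 and Cop1 were unequal was not tested.

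Among 10 measured COP1 substrates and Tribbles partners, 1 rose and 0 fell, with a median difference of -0.10. The one that rose was Trib2, a Tribbles pseudokinase that brings C/EBP factors to COP1. It read 14.87, 14.14 and 14.83 in deficient arrays, against 12.98, 13.18 and 13.30 in control arrays. Every deficient array was above every control array, by 1.46 on average (SE 0.235, adjusted p = 0.0132). The call ended without control replicate 1 (adjusted p = 0.0550), control replicate 2 (0.0610), deficient replicate 1 (0.0669) or deficient replicate 3 (0.0508). Etv5, an ETS factor, had the next lowest p and was not called. Its values of 6.16, 6.39 and 6.01 in deficient arrays lay below the 7.17, 7.45 and 6.55 of control arrays, with a difference of -0.87 (SE 0.252, adjusted p = 0.144). Jun varied within both groups and differed by -0.08 (SE 0.474, adjusted p = 0.977).

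The genes whose pattern over the 6 arrays was most like that of Det1, the member with the lowest p, were Sh3gl3 (Pearson's r = 0.9975, Spearman's rho = 1), Bcl6 (r = 0.9949, rho = 0.943) and Tefm (r = 0.9948, rho = 1). They were the 3 highest of all named probe sets, all 6 arrays enter through the same group difference, and no test was made. Bcl6, a transcriptional repressor known from follicular T cells, differed by -1.61, Tefm, a factor of mitochondrial transcription, by -0.79, and Sh3gl3 by -0.75. Sh3gl3 averaged 4.53, under the silent-gene reference.

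Cereblon, encoded by Crbn, is the receptor to which thalidomide and its analogs bind, and in human cells these drugs make it degrade the lymphoid transcription factors IKZF1 and IKZF3. Crbn read 13.52, 13.21 and 13.36 in deficient arrays, against 14.08, 13.86 and 13.68 in control arrays. No deficient value reached the control range, and the means were 13.36 ± 0.155 and 13.87 ± 0.20 (SD, n = 3 each). The difference was -0.51, or 1.42-fold lower (SE 0.189, interval -0.94 to -0.08), with an unadjusted limma p of 0.0249 and an adjusted p of 0.274. The exact permutation test again gave its smallest value of 0.1. Without control replicate 1, the highest array, the difference was -0.41 (adjusted p = 0.569).

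Of 4 measured CRBN substrates and drug-dependent substrates, 1 rose and 0 fell, with a median of 0.40. The gene that rose was Ikzf1 (Ikaros). It read 15.91, 16.03 and 15.69 in deficient arrays, against 14.92, 14.71 and 15.09 in control arrays. The groups lay well apart, by 0.97 (SE 0.190, adjusted p = 0.0315). Leaving out any of the 6 arrays ended the call: the adjusted p was 0.117, 0.0866 and 0.0535 without deficient replicates 1, 2 and 3, and 0.104, 0.129 and 0.0670 without control replicates 1, 2 and 3. Ikzf3 (Aiolos) read 11.74, 11.71 and 11.68 in deficient arrays, against 10.88, 10.75 and 11.12 in control arrays. Its difference of 0.79 (SE 0.177, adjusted p = 0.0554) was just outside the threshold, and 3 alternatives put it inside: quantile normalization (0.0387), leaving out the dimmest probe sets (0.0458) and an intensity trend with robust variance (0.0408). Csnk1a1, a kinase that lenalidomide-bound human CRBN degrades, differed by -0.25 (adjusted p = 0.680). Ikzf2 and Ikzf4, of the same gene family as Ikzf1 and Ikzf3, were counted with the Treg markers and not in this list. They went the other way: Ikzf2 fell, with a difference of -0.95 (SE 0.202, adjusted p = 0.0446). Ikzf4 differed by -0.68 (SE 0.212, adjusted p = 0.178). The arrays measured RNA, and CRBN acts on protein. No such drug is named in the labels.

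**Figure D2:**
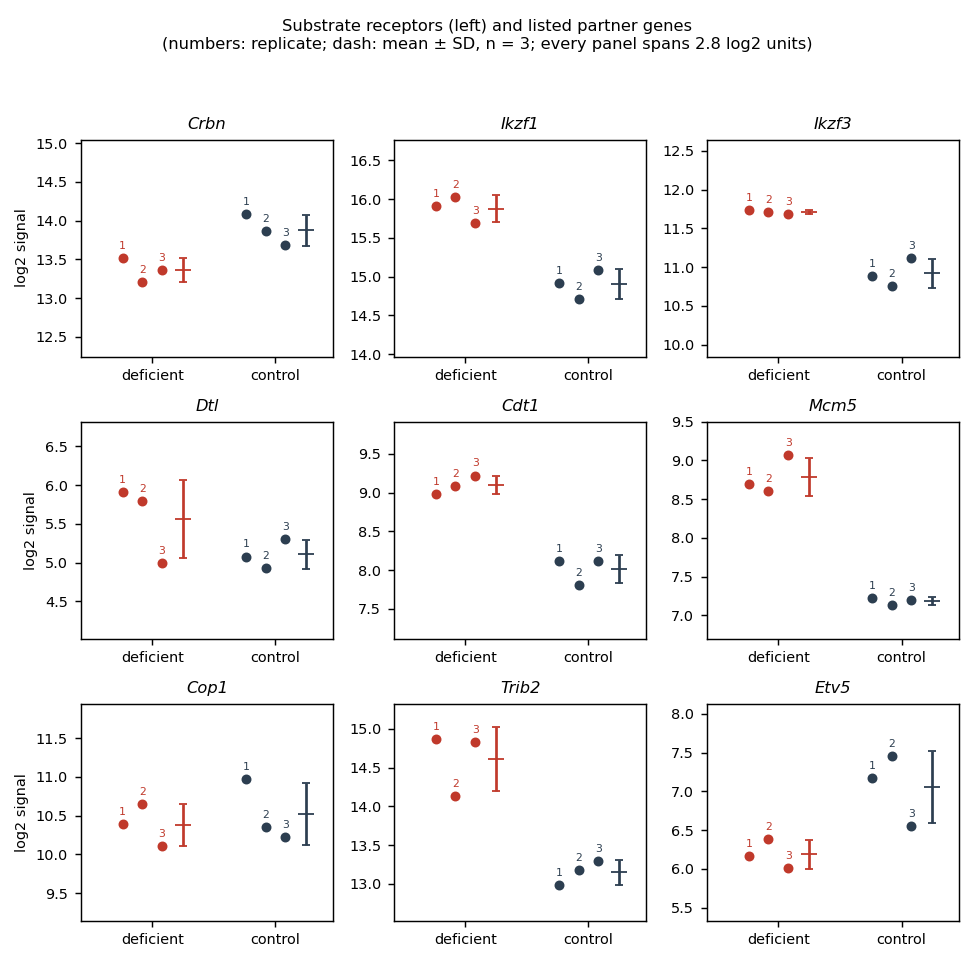
Log2 signal in the 3 deficient (left, red) and 3 control (right, dark) arrays of Crbn with Ikzf1 and Ikzf3, of Dtl with Cdt1 and Mcm5, and of Cop1 with Trib2 and Etv5. Points are arrays with their replicate number, dashes are means ± SD (n = 3), and every panel spans 2.8 log2 units. Differences were -0.51 for Crbn and 0.97 for Ikzf1, 0.46 for Dtl and 1.08 for Cdt1, and -0.14 for Cop1 and 1.46 for Trib2.

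DTL (also CDT2) is the receptor that destroys the replication licensing factor CDT1, the inhibitor p21 and the methyltransferase SET8 when they sit on chromatin-bound PCNA, and in mammals its gene is among those that E2F factors switch on before S phase. Promoter letters are therefore shown for Dtl and for the S phase genes Mcm5 (a subunit of the replicative helicase) and Uhrf1 (which helps copy DNA methylation), the 2 called genes of the proliferation list. Capitals mark matches to 4 E2F-type strings (TTTGGCGC, TTTCCCGC, TTTCGCGC or TTTGCCGC, either strand), lower case the flanks, and each run is read 5′ to 3′ on the strand of the gene. The sequences are from RefSeq, build GRCm38.p6: Dtl chr1:191575525-191575582 (minus strand), Mcm5 chr8:75109326-75109397 (plus strand) and Uhrf1 chr17:56304098-56304165 (plus strand).
Dtl: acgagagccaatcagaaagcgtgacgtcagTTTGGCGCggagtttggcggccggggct
Mcm5: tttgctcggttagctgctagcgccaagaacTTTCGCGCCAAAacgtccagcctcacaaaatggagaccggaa
Uhrf1: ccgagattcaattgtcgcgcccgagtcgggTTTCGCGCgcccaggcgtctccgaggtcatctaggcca

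The match begins 8 bases before the annotated start of Dtl, 153 before that of Mcm5 and 185 before 1 of the 2 annotated starts of Uhrf1, whose other window held no match. In Mcm5 the capitals hold 2 overlapping matches, TTTCGCGC as read and TTTGGCGC on the opposite strand. Within windows of 250 bases before to 50 after a start, such a string was present in 744 of 32851 mouse windows (2.26%). Of the members, 9 had a window (Ddb2 did not) and 1, Dtl, held a match. Of 15 proliferation genes with a window, 7 held one, as did 2 of 7 genes of the DTL list, Cdt1 and Pclaf. These windows include Mcm7, with a match, and Tdg, without one, which had no named probe set. Gmnn of the DTL list had no window. Besides Mcm5 and Uhrf1, the measured proliferation genes with a match were Mcm3 (difference 0.63), Mcm6 (-0.01), Cdc6 (0.89) and Cdk1 (0.24), none of them called. Cdc6 and Cdk1 averaged under the silent-gene reference. CCGGAAG and CCAAT were also searched. Among members, Det1 held CCGGAAG (8.86% of all windows), and Dtl, Dda1 and Ercc8 held CCAAT (37.4%). A match says only that these letters occur there.

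Dtl was dim. It read 5.91, 5.79 and 4.99 in deficient arrays, against 5.08, 4.93 and 5.31 in control arrays, and both the control mean of 5.11 and the mean over all 6 arrays of 5.34 were under the silent-gene reference. Its deficient mean was 5.56, beside a reference of 5.51 taken from the deficient arrays alone. Deficient replicates 1 and 2 were above every control array and replicate 3 was within the control range. The difference was 0.46 (SE 0.264, interval -0.14 to 1.06, adjusted p = 0.556), and 0.74 without deficient replicate 3 (adjusted p = 0.168), the lowest adjusted p of any member in any of the 14 alternatives.

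Of 7 measured DTL substrates and partners, 1 (Cdt1) rose and 0 fell, with a median of 0.17. Cdt1 read 8.98, 9.09 and 9.22 in deficient arrays, against 8.12, 7.81 and 8.12 in control arrays. It rose by 1.08 (SE 0.182, adjusted p = 0.0159), a call that ended without deficient replicate 1 (0.0527) or 3 (0.0610) and without control replicate 2 (0.0737) or 3 (0.0518). E2f1, a factor of the E2F family, had the next lowest p. It differed by 0.68 (adjusted p = 0.111) at levels under the silent-gene reference in every array. Pcna, the clamp on which CRL4-DTL finds its substrates, differed by -0.10 (interval -0.47 to 0.27).

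The proliferation and S phase list had 18 measured genes, of which 2 rose and 0 fell, with 15 above and 3 below 0 and a median of 0.44. Its mean per gene was 7.07, 7.62 and 7.31 in deficient arrays, against 7.05, 6.56 and 6.86 in control arrays, so the deficient arrays were above the control arrays, replicate 1 of each only just. Mcm5 read 8.69, 8.61 and 9.07 in deficient arrays, against 7.23, 7.13 and 7.20 in control arrays. It rose by 1.60 (SE 0.188, adjusted p = 0.00247) and stayed called without any 1 array. Uhrf1 read 7.20, 7.91 and 7.58 in deficient arrays, against 6.63, 6.26 and 6.51 in control arrays, and rose by 1.10 (SE 0.225, adjusted p = 0.0389). That call ended without deficient replicate 2 (0.0923) or 3 (0.109) or any control replicate (0.0846, 0.159 and 0.124 without 1, 2 and 3). Among the deficient arrays, Dtl was highest in replicate 1, where this list was lowest. The part of cycling cells in the Dtl values was not tested.

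DDB2 and ERCC8 (also CSA) are the receptors of nucleotide excision repair. DDB2 finds ultraviolet lesions in chromatin, and ERCC8 acts where RNA polymerase has stalled at a lesion. Ddb2 read 10.23, 10.04 and 9.87 in deficient arrays, against 10.41, 10.29 and 10.05 in control arrays. The ranges overlapped, and the difference was -0.20 (SE 0.190, interval -0.63 to 0.23, adjusted p = 0.770).

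Ercc8 read 6.41, 6.44 and 6.60 in deficient arrays, against 7.0, 6.63 and 7.04 in control arrays. The groups did not overlap, though deficient replicate 3 and control replicate 2 were almost level. The difference was -0.41 (SE 0.188, interval -0.83 to 0.02, adjusted p = 0.419), and the permutation test gave 0.1. Without control replicate 2 the difference was -0.54 (adjusted p = 0.352).

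The 3 members whose groups did not overlap, Crbn, Det1 and Ercc8, make 30% of the members, all lower in deficient cells. Groups did not overlap for 18.2% of all probe sets (9.97% lower and 8.22% higher in deficient cells) and for 26.1% of those above the silent-gene reference, so the count is near its background.

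The rest of the excision repair pathway was measured by 16 genes. Of these, 0 rose and 0 fell, 0 had an unadjusted limma p under 0.05, and 12 were below and 4 above 0, with a median of -0.13. The lowest p belonged to Ercc4, a nuclease subunit that cuts beside the lesion, at -0.51 (adjusted p = 0.451), and Xpa, a scaffold of the repair complex, at -0.47 (adjusted p = 0.513). DDB2 is a p53 target gene in human cells. Of 11 measured p53 target genes, 0 rose and 4 fell, with a median of 0.01, while 2.27% of all probe sets were called lower. That median includes 5 genes whose mean was at or under the silent-gene reference. The differences of those that fell were -1.30 for Ei24 (adjusted p = 0.0144), -1.29 for Ccng1 (0.0201), -0.96 for Zmat3 (0.0189) and -0.80 for Trp53inp1 (0.0483). Each of these calls ended without single arrays. Without control replicate 2 the adjusted p of these genes was 0.0735, 0.0717, 0.0886 and 0.178 in that order, and without control replicate 3 it was 0.0554, 0.0835, 0.0664 and 0.148. The calls of Zmat3 (0.0645) and Trp53inp1 (0.129) ended without control replicate 1. Without deficient replicate 1, those of Ccng1 (0.0812), Zmat3 (0.0826) and Trp53inp1 (0.102) ended. Without deficient replicate 2, those of Ccng1 (0.0514) and Trp53inp1 (0.128) ended, and without deficient replicate 3, those of Ei24 (0.0508), Zmat3 (0.0659) and Trp53inp1 (0.125).

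AMBRA1 is the receptor that brings D-type cyclins to CRL4 and also acts in autophagy. Ambra1 read 14.37, 14.21 and 13.74 in deficient arrays, against 14.05, 13.83 and 14.22 in control arrays. The groups were interleaved, with means of 14.11 ± 0.327 and 14.03 ± 0.196 (SD, n = 3 each) and a difference of 0.07 (SE 0.219, interval -0.42 to 0.57, adjusted p = 0.948). Without deficient replicate 1 the difference was -0.06. Of 5 measured AMBRA1 substrates and autophagy partners, 0 rose, 0 fell and 0 had an unadjusted p under 0.05, with a median of 0.01. The pair with the lowest p were the cyclins Ccnd3, which differed by 0.30 (adjusted p = 0.609), and Ccnd2, by -0.18 (adjusted p = 0.814).

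Dcaf8, a receptor with a WD40 propeller of the kind that docks on DDB1, read 13.07, 12.75 and 12.94 in deficient arrays, against 12.65, 12.63 and 12.92 in control arrays. The ranges overlapped, with deficient replicate 2 under control replicate 3. The difference was 0.19 (SE 0.184, interval -0.23 to 0.60, adjusted p = 0.785).

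The 18 further DCAF receptors measured were not called either (0 rose and 0 fell), with a median of 0.11, 11 above and 7 below 0, and 2 with an unadjusted p under 0.05. Groups did not overlap for 4 of them: Trpc4ap, Brwd1 and Dcaf7 were higher and Dcaf12 lower in deficient cells. This count too is near its background, 18.2% of all probe sets and 26.1% of those above the silent-gene reference. Trpc4ap, a receptor that binds DDB1 and is known for turnover of MYC proteins in human cells, had the lowest p. It read 15.17, 14.90 and 14.98 in deficient arrays, against 14.34, 14.26 and 14.41 in control arrays, a difference of 0.68 (SE 0.172, adjusted p = 0.0916, and 0.0364 with an intensity trend and robust variance). Dcaf12, which in human cells recognises proteins with an acidic end, differed by -0.61 (SE 0.207, adjusted p = 0.223). These 2 genes were named for their low p, by rule.

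**Figure D3:**
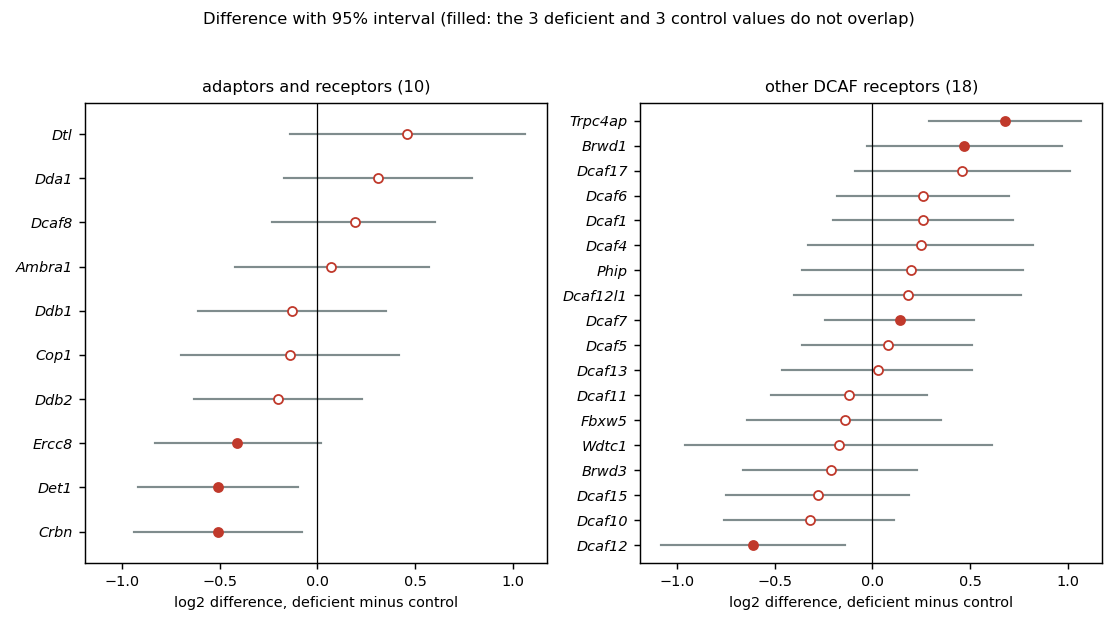
Log2 difference (deficient minus control) with its 95% interval for the 10 adaptors and receptors (left) and 18 other DCAF receptors (right). Filled points mark genes whose deficient and control values do not overlap, 3 on the left and 4 on the right. Member differences run from -0.51 to 0.46, and 8 of 10 intervals include 0.

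Deficient replicate 3 had the lowest value of the 6 arrays for 5 of the 10 members (Ddb1, Ddb2, Cop1, Det1 and Ambra1) and the highest for 0, while control replicate 1 had the highest for 4 (Ddb2, Crbn, Cop1 and Det1). Averaged over the members, the signal was 10.44, 10.39 and 10.12 in deficient arrays, against 10.50, 10.36 and 10.35 in control arrays. Deficient replicate 3 also had the highest median of all probe sets, 5.11, and the lowest 75th percentile, 8.32. Its part in the differences is given by leaving it out. Without it, Dtl differed by 0.74 and Dda1 by 0.48 (adjusted p = 0.395), Ambra1 by 0.26 and Ddb1 by -0.03, and limma called 0 members, with Dtl and Dda1 at an unadjusted p under 0.05. Quantile normalization gave Det1 a difference of -0.39, Ercc8 -0.28 and Crbn -0.47, with 0 called and Crbn alone at an unadjusted p under 0.05.

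**Figure D4:**
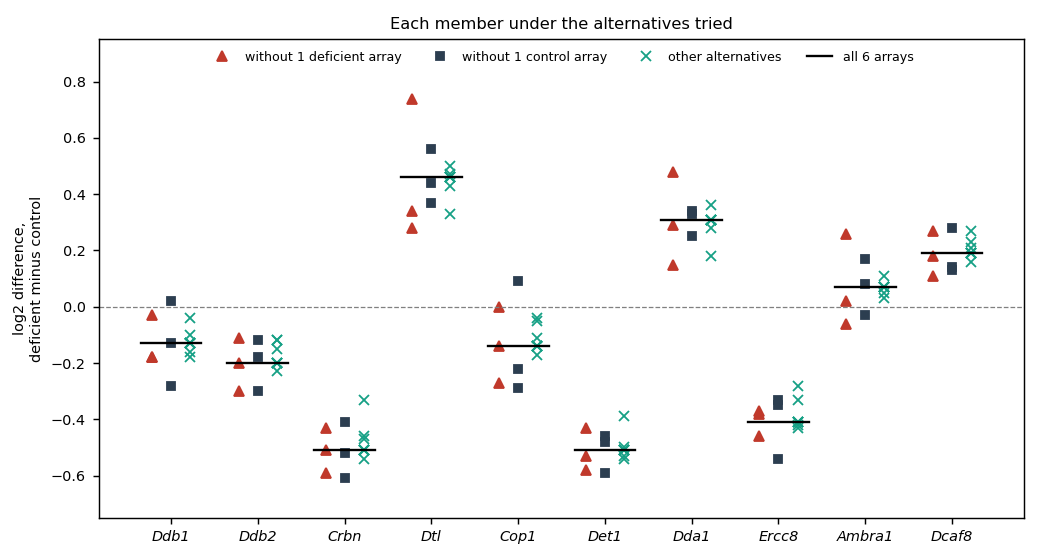
Log2 difference (deficient minus control) of each member with all 6 arrays (black bar), without 1 deficient array (red triangles), without 1 control array (dark squares) and under the other alternatives (green crosses). Crbn, Det1, Ercc8 and Ddb2 stay below 0 and Dtl, Dda1 and Dcaf8 above it in all of them, while Ddb1, Cop1 and Ambra1 cross it.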

How the data were processed

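RNA of CD4+YFP+ Treg cells was amplified with a pico kit and hybridised to Clariom S arrays. The authors deposited 1 log2 signal per probe set and array, made with Affymetrix Expression Console 1.4 per the submitters' processing notes. How probe sets were summarised, the log base, any background correction and any filter: not given in the sources used here. Because they ran from 2.06 to 19.90, the values were read as log2. Another base would alter every fold and leave each sign as it is. Scanner intensities and detection calls were not used, so a probe's background and any scan batch were not examined. Of 22206 probe sets, the platform annotation gave 1 symbol to 19572, several to 0 and none to 2634. Where a symbol had several, the brightest over the 6 arrays was used. Signals of different probe sets were compared only with the silent-gene reference and to rank them by brightness.

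Arrays were grouped by the genotype label and compared with limma 3.58.1 in R 4.3.3 (lmFit, eBayes, group only, no filter), and adjusted by Benjamini-Hochberg over all probe sets. The fit was tested on simulated data. p-values measure the spread between pools of mice, and their number limits the precision. Intervals are 95%. Named genes were all members, Ube2f, Cul4a, Cul4b and Rbx1, up to 4 called genes of each list with the largest difference (or the 2 of lowest p if 1 or 0 were called), the 3 genes most like the member with the lowest p, and the brightest gene of each cell type list. Genes named beside these were chosen after their values were seen. Members and lists were chosen with earlier results of these data known. Listed genes without a named probe set included Tdg (DTL list), Zfp91 and Glul (CRBN), Ccnd1 and Ppp2ca (AMBRA1), Ercc2 and Gtf2h2 (repair), Mcm7 (proliferation), Bax (p53), and Ube2m. Their expression was not analysed here, while Tdg and Mcm7 were counted among the promoter windows.

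Cell type lists, as mean signal per gene, ran as follows. T cell genes had 14.99 to 15.17 in deficient and 15.18 to 15.28 in control arrays. CD8 T cell genes (brightest Cd8b1, 8.55) had 5.27 to 5.78 and 5.25 to 5.57. B cell genes (Cd79b, 6.46) had 4.14 to 4.58 and 4.54 to 4.83. Myeloid genes (Siglech, 5.15) had 3.89 to 4.47 and 3.85 to 3.98. NK cell genes (Nkg7, 7.60) had 4.73 to 6.49 and 5.00 to 5.83. Erythroid and platelet genes (Itga2b, 6.28) had 4.58 to 4.79 and 4.49 to 4.51. The brightest Treg gene was Ikzf2 (15.91) and the brightest muscle gene Pygm (7.15). The part of other cells in the results was not tested.

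Alternatives were the methods' t-test, a fit with array weights, a fit with a variance trend on intensity and robust estimation, replicate number as a block, quantile normalization, dropping the 40% dimmest probe sets, centring arrays on their median, and leaving out each array. Leaving out control replicate 1 and deficient replicate 2 together was added after seeing the data. Promoter windows came from a RefSeq table of GRCm38.p6.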

Additional observations from a re-analysis of the deposited data

How the results depend on the processing

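No member was called under any of the 14 alternatives. The direction of Crbn (-0.61 to -0.33), Det1 (-0.59 to -0.39), Ercc8 (-0.54 to -0.28), Ddb2 (-0.30 to -0.11), Dtl (0.28 to 0.74), Dda1 (0.15 to 0.48) and Dcaf8 (0.11 to 0.28) held in all of them. Leaving out 1 array turned the sign of Ddb1 (-0.28 to 0.02), Cop1 (-0.29 to 0.09), Ambra1 (-0.06 to 0.26) and Cul4b (-0.27 to 0.10): for Cop1 without control replicate 1 (0.09), for Ddb1 (0.02) and Ambra1 (-0.03) without control replicate 2, for Ambra1 without deficient replicate 1 (-0.06), and for Cul4b without deficient replicate 2 (0.10). Cul4b also turned without control replicate 1 and deficient replicate 2 together (0.14). The cause was not tested. Over all probe sets limma called 129 higher and 503 lower in deficient cells. The study's methods name a t-test without tying it to the arrays. This t-test called 1 and 5 after adjustment, and 468 and 1028 at the study's threshold. At that threshold limma picked 719 and 1292, and the study's own counts were nearer to these. Leaving out 1 array, limma called 46 to 81 higher and 269 to 431 lower after adjustment, with fewer samples, and leaving out both arrays gave 50 higher. The pairing of replicate numbers was not borne out: deviations of same-numbered arrays correlated at -0.0561, -0.243 and 0.291. With the replicate block, 70 were called higher and 367 lower, and 0 members. The block also ended the calls of Ikzf1 (adjusted p = 0.0970), Uhrf1 (0.103), Zmat3 (0.0605) and Trp53inp1 (0.134). Median centring ended those of Ikzf1 (0.0545), Uhrf1 (0.0539) and Trp53inp1 (0.0545), and quantile normalization that of Trp53inp1 (0.0898). The methods' t-test, adjusted, ended those of Cdt1 (0.107), Trib2 (0.177), Ikzf1 (0.152), Mcm5 (0.0905), Uhrf1 (0.226), Ei24 (0.163), Ccng1 (0.192), Zmat3 (0.0871) and Trp53inp1 (0.107). Without control replicate 1 and deficient replicate 2 together, those of Cdt1 (0.0683), Ikzf1 (0.165), Uhrf1 (0.118), Ei24 (0.0567), Ccng1 (0.0572), Zmat3 (0.0814) and Trp53inp1 (0.209) ended. Without detection calls, low signals such as Dtl cannot be told from background.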
